A study of Homo sapiens with 9 samples.

Results

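RNA was sequenced from HaCaT cells, a spontaneously immortalised line of human keratinocytes, after 24 h in plain medium or with fragmented polystyrene (fPS) at 25 µg/ml. This comparison uses 6 of the 9 libraries of the study: 3 from cells in Dulbecco's modified Eagle's medium alone (control) and 3 from cells with fPS at 25 µg/ml (fPS 25). The other 3 libraries came from cells with fPS at 100 µg/ml (fPS 100) and enter below only where the concentrations are set against each other. Both groups were grown in the same medium with serum and antibiotics. All libraries come from a single cell line, no group with another kind of particle was analysed here, and the labels do not give the size of the fragments. Nothing states that the 3 libraries of a group came from separate cultures, so each p-value measures the spread between libraries, which may be technical. The study asked, by its title, how fragmented polystyrene relates to skin inflammation.

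Keratinocytes form the epidermis and carry sensors for many kinds of insult. The aryl hydrocarbon receptor (AhR) is a cytosolic receptor for planar aromatic chemicals that moves to the nucleus when bound and switches on detoxifying enzymes such as CYP1A1. NF-kB is a transcription factor held inactive by IkB proteins, and in skin it drives cytokine, survival and protease genes. Type I interferon genes make antiviral proteins, and the unfolded protein response (UPR) adjusts the chaperones of the endoplasmic reticulum (ER) to the protein load. A bulk library cannot tell fewer cells of a kind from less RNA per cell.

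Total counts ran from 16428213 to 25372399 per library, and 14242 genes passed the filter on low counts. Levels are given in CPM, counts scaled to the size of each library by TMM, and fold changes are log2 of fPS 25 over control with their standard error (SE), n = 3 per group. A gene was called at a Benjamini-Hochberg adjusted p under 0.05 over all genes in the quasi-likelihood test of edgeR, and every adjusted p below comes from that test unless another tool is named. All 15 keratinocyte markers were measured, at a summed 8349 to 8647 CPM in control and 7497 to 7839 CPM in fPS 25. The melanocyte, leukocyte and endothelial lists summed to 1.30 to 16.3 CPM per library, and TYR, HLA-DRA and KDR were at 0 in all 6. Of the leukocyte list CD68, which is also a general lysosomal protein, rose from 8.63 to 13 CPM (log2 fold change 0.60 ± 0.11). The fibroblast list summed to 99.6 to 112 CPM, of which FBLN1 made up most, while LUM was at 0. Principal component 1 held 48.1% of the variance and separated the groups, with control replicate 2 the farthest out at -36.5 and the 3 fPS 25 libraries between 12.2 and 25.2.

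In all, 1511 of 14242 genes were called (10.6%): 789 were higher (5.54%) and 722 lower (5.07%) in fPS 25. Most changes were small. The median size of a called change was 0.54 upward and 0.53 downward on the log2 scale, and 87 genes (0.611%) rose and 138 (0.969%) fell by 2-fold or more. The libraries of the groups did not overlap for 4841 genes (34.0%), including all but 1 of the genes called. Among genes at 1 CPM or more in the higher group and without overlap, the 2 steepest rises were AhR-responsive enzymes. Steep falls among these genes included matrix metalloproteases and NF-kB targets. The count of genes called rests on all libraries. Leaving out control replicate 3 raised it to 3331. Leaving out any fPS 25 library lowered it to between 380 and 585, and leaving out control replicate 1 lowered it to 759. With the replicate number as a block, which is not known to pair the libraries, 284 genes were called.

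**Figure D1:**
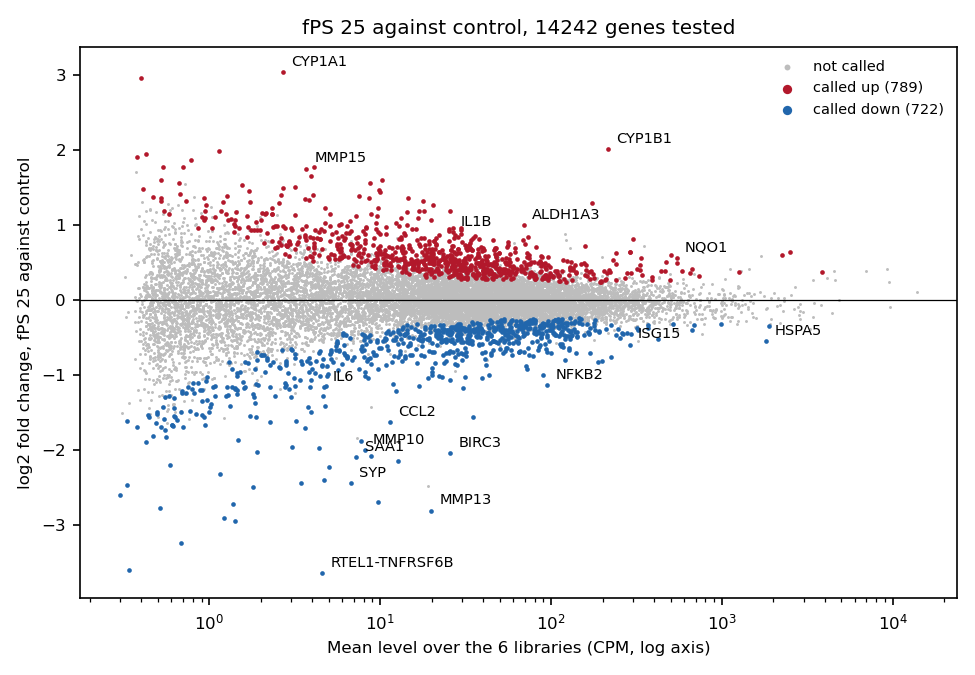
Log2 fold change of fPS 25 against control (vertical axis) against the mean level over the 6 libraries in CPM (horizontal, log axis) for the 14242 genes tested. Red points are the 789 genes called up, blue points the 722 called down and grey points the rest. CYP1A1 and CYP1B1 stand above the other labelled rises, and MMP13 and BIRC3 lie far below 0 at moderate levels.

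Of 15 tested genes of AhR signalling and xenobiotic metabolism, 8 rose and none fell, against 5.54% of all genes called up. The median fold change of the list was 0.37, beside -0.0031 over all genes tested. This list and those below were chosen with earlier results of these data known. Their shares beside those of all genes therefore describe them and test nothing. Here and in the lists below, where edgeR called no member in a direction, at most 3 members moved that way at an unadjusted p under 0.05, and DESeq2 called at most 2 and limma-voom at most 1. CYP1A1 (chr15:74719542-74725528), the cytochrome that oxidises polycyclic hydrocarbons and the classic AhR target, stood at 0.547, 0.773 and 0.423 CPM in the 3 controls and at 4.17, 5.29 and 4.98 CPM in fPS 25. Its level was low, with at least 10 reads in every control and 69 in every fPS 25 library, and the groups did not overlap (log2 fold change 3.04 ± 0.23, adjusted p = 0.000621). CYP1B1 (chr2:38067509-38076151), a second AhR-induced cytochrome, was present at far higher levels. It ran at 75.5, 115 and 67 CPM in control and 310.3, 389 and 336 CPM in fPS 25, a log2 fold change of 2.01 ± 0.18 (adjusted p = 0.00104). The lowest fPS 25 library lay far above the highest control.

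ALDH1A3, which makes retinoic acid from retinal, rose from 46.3 ± 1.77 to 92.4 ± 7.87 CPM (SD, log2 fold change 1.0 ± 0.08, adjusted p = 0.000677). NQO1, a quinone reductase under both AhR and NRF2, stood at 478, 458 and 379 CPM in control and 605, 632 and 705 CPM in fPS 25. The other members that rose were EPHX1, an epoxide hydrolase, CYP2S1, CYP4F11 and SLC7A5, a large neutral amino acid transporter. Their log2 fold changes lay between 0.37 and 0.53. AHR itself, its partner ARNT and its repressor AHRR were not called. AHRR read 3.45 ± 0.750 CPM in control and 2.7 ± 0.165 CPM in fPS 25, and TIPARP, another direct target, 55.4 ± 5.78 and 65.2 ± 4.95 CPM. The number of members called up was 3 to 9 with a library left out, and 3 with the replicate block.

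The NRF2 list holds genes of glutathione, thioredoxin and NADPH supply. Of its 28 tested members 8 rose, against 5.54% of all genes, and SRXN1 fell, with a median fold change of 0.15. TXNRD1, the cytosolic thioredoxin reductase, stood at 235, 191 and 253 CPM in control and 329, 379 and 347 CPM in fPS 25 (log2 fold change 0.63 ± 0.11, adjusted p = 0.00870). ABCC3, an efflux pump for conjugates, rose from 30.4 to 45.3 CPM (log2 fold change 0.58 ± 0.09). PGD, an NADPH-making enzyme of the pentose phosphate pathway, rose from 453 to 640.0 CPM (log2 fold change 0.50 ± 0.08). GCLC and GSR, which make and recycle glutathione, and AKR1C3 also rose, by 0.25 to 0.57 on the log2 scale. SRXN1, sulfiredoxin, which is also an NRF2 target, went from 279 ± 26 down to 202 ± 18.5 CPM (log2 fold change -0.46 ± 0.10, adjusted p = 0.0170). No member was called up with the replicate block, and 2 to 9 were with a library left out. Of 5 tested metallothionein and zinc export genes, MT1E rose (20%, beside 5.54% of all genes). MT1E went from 25.4, 31.1 and 24.1 CPM in control to 40, 40.7 and 46.7 CPM in fPS 25.

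**Figure D2:**
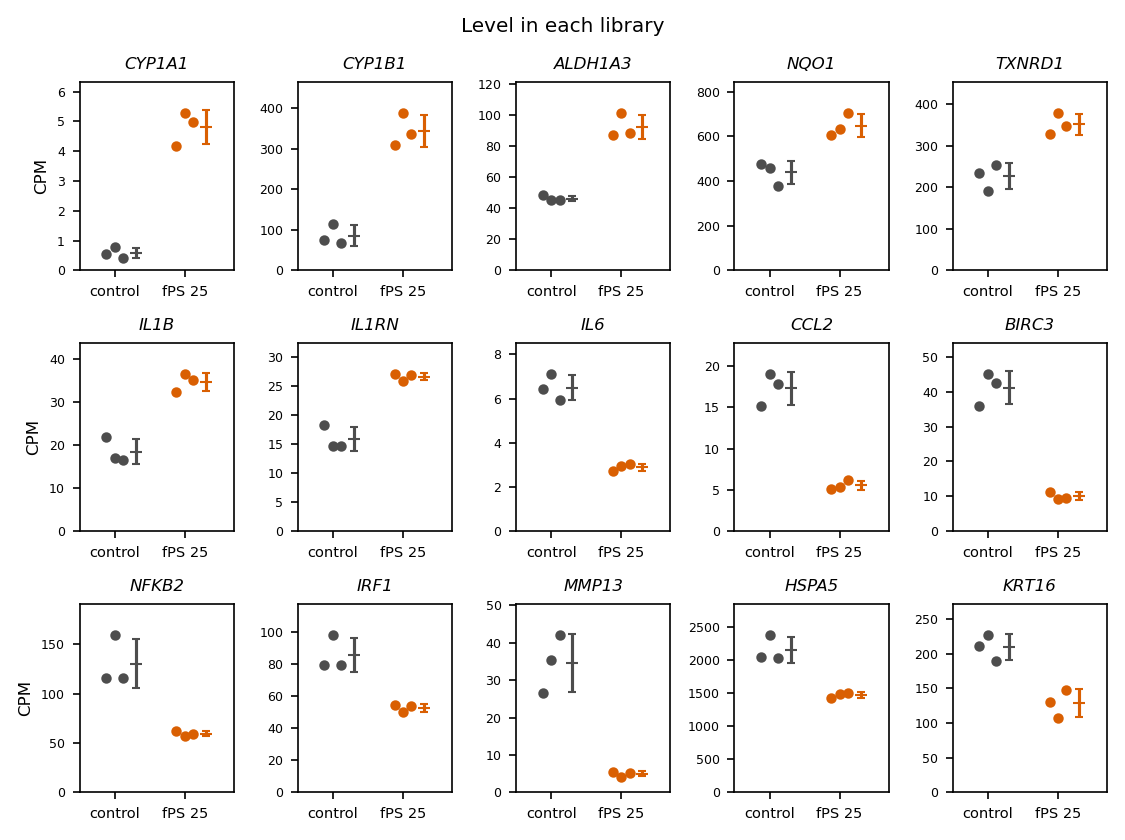
Levels in CPM (vertical axis, from 0) of 15 genes in each library of control (grey) and fPS 25 (orange). The points are the 3 libraries, and the dash and bar beside them are their mean and SD. The groups do not overlap for any of the 15 genes, which were picked from the lists described in the text. Of all 14242 genes tested, 4841 (34%) showed no overlap. The same held for 788 of the 789 genes called up and for all 722 called down. The lack of overlap among the genes shown is therefore no separate test.

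Genes induced by NF-kB leaned the other way. Of 22 tested members 8 fell, against 5.07% of all genes called down, and 1, IER3, rose. The median fold change was -0.20. BIRC3 (chr11:102317484-102339403), a ubiquitin ligase of the TNF receptor complex that restrains cell death, stood at 35.9, 45 and 42.6 CPM in control and 11.4, 9.25 and 9.47 CPM in fPS 25. Its fall by 2.04 ± 0.12 on the log2 scale had the smallest adjusted p of the list (0.000381), and every fPS 25 library lay far below every control. NFKB2 and RELB, the subunits of the noncanonical dimer, read 116, 159 and 116 CPM and 23.9, 32.7 and 24.1 CPM in control. In fPS 25 they read 62, 57.2 and 59.2 CPM and 12.6, 13.4 and 14.3 CPM, changes of -1.13 ± 0.12 and -1.0 ± 0.14.

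The inhibitors of the pathway fell as well. NFKBIA and NFKBIE, which encode IkB proteins, changed by -0.57 ± 0.10 and -0.84 ± 0.13, and TNFAIP3, the deubiquitinase A20, by -0.73 ± 0.10. TNIP1, a binding partner of A20, went from 154 to 118 CPM (log2 fold change -0.38 ± 0.08), and TNFAIP2 from 95 to 50.1 CPM (log2 fold change -0.92 ± 0.09). Other members were not called, among them NFKB1 at 73.1 ± 3.2 and 69.6 ± 5.29 CPM, ICAM1, the leukocyte adhesion molecule, at 21.1 ± 0.568 and 20.8 ± 1.54 CPM, and SOD2 at 144 ± 8.01 and 126 ± 4.26 CPM. For 7 of the 8 members called down, the highest control was replicate 2. With any library left out 6 to 9 members were called down, and with the replicate block 6. With all 9 libraries fitted together, so that the fPS 100 group shared in the estimate of spread, 1 was called, with every fold change of the 8 still negative.

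Promoter sequence is printed for genes of this group and of those that follow, to show known response elements in members that fell. The windows run from 250 bases before to 50 bases after the transcription start in RefSeq annotation of GRCh38.p14, 5′ to 3′ on the strand of the gene. Capitals mark every match to the NF-kB letters, GGG, any 3 bases and TTCC, read on both strands. BIRC3 lies on the plus strand, window chr11:102317234-102317533.
BIRC3: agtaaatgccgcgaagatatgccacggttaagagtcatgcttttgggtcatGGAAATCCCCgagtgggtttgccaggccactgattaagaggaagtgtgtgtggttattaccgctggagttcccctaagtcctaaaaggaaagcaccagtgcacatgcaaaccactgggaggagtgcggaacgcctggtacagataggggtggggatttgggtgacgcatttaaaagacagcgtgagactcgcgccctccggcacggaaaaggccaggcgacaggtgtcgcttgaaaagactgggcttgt
A promoter was in the RefSeq table for 6 of the 8 NF-kB targets that fell, and 3 of them hold such a match (NFKBIA, TNFAIP3 and BIRC3). The letters occur in 6.47% of the 27305 promoters of the table and in 7.63% of those of the genes tested. The NF-kB letters also lie in 2 of the 7 AhR members called up that have a promoter in the table. Letters of the AhR response element (T, any base and GCGTG) lie in 1 of these 7. They occur in 6.38% of the promoters of all genes called up, 7.30% of those of genes tested and 5.51% of all in the table. Letters of an AP-1 site (TGA, any base and TCA) lie in no promoter of the 6 NF-kB targets. They lie in both protease promoters of genes called down that the table holds (MMP7 and MMP10). Over larger sets, they occur in 7.26% of the promoters of all genes called down, 4.73% of those of genes tested and 7.76% of all in the table.

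Secreted cytokines split. Of 17 tested, IL1B, IL1RN, IL1A and TNFSF15 rose, and CCL2 and IL6 fell. The share called was 35.3%, beside 10.6% of all genes. IL1B, the secreted form of interleukin-1, stood at 21.9, 17.1 and 16.4 CPM in control and 32.3, 36.5 and 35.1 CPM in fPS 25 (log2 fold change 0.91 ± 0.12, adjusted p = 0.00301). IL1RN, the antagonist of the same receptor, rose with it, from 15.9 to 26.6 CPM (log2 fold change 0.74 ± 0.11), and IL1A from 25.5 to 40.6 CPM (log2 fold change 0.67 ± 0.11). CCL2, the chemokine that draws monocytes, fell from 15.1, 19 and 17.8 CPM to 5.07, 5.41 and 6.21 CPM (log2 fold change -1.63 ± 0.13, adjusted p = 0.000621). IL6 was low throughout, at 6.43, 7.12 and 5.96 CPM in control and 2.72, 2.94 and 3.04 CPM in fPS 25, a change of -1.16 ± 0.14 with no overlap (adjusted p = 0.00220). The neutrophil chemokines were hardly expressed: CXCL1 read 1.47 ± 0.432 and 0.935 ± 0.0875 CPM and CXCL8 0.858 ± 0.203 and 0.788 ± 0.0606 CPM, and neither was called. The acute-phase gene SAA1, which is not on the list, read 9.94, 16.6 and 8.75 CPM in control and 2.72, 2.22 and 3.3 CPM in fPS 25, a change of -2.1 ± 0.26. Its near-identical neighbour SAA2 changed by -1.83 ± 0.36, and reads of the pair may be split between them. CCL2 and IL6 were called down whichever library was left out. With all 9 libraries fitted, 1 cytokine was called up and 1 down, and CCL2, IL1B and SAA1 were not called (adjusted p = 0.416, 0.228 and 0.538), while with the replicate block 2 were called up and 2 down. Of inflammasome and pyroptosis genes 3 of 13 rose, beside 5.54% of all genes: DFNA5, NINJ1 and IL1B, which the cytokine list also holds. DFNA5, also called gasdermin E, went from 24.3 to 39.3 CPM (log2 fold change 0.69 ± 0.09). NINJ1, the membrane rupture protein, went from 39.5 to 54 CPM (log2 fold change 0.45 ± 0.08). The median of the list was -0.05, with 6 of 13 fold changes above 0.

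Type I interferon genes leaned downward. Of 47 tested members 18 were called down and none up, against 5.07% of all genes called down. The median fold change was -0.34, and 4 of the 47 fold changes lay above 0. For 12 of the 18 members called down, the highest control was replicate 2. IRF1, a transcription factor shared by the interferon and NF-kB pathways, stood at 79.7, 98.3 and 79.3 CPM in control and 54.5, 50.2 and 53.8 CPM in fPS 25 (log2 fold change -0.70 ± 0.10, adjusted p = 0.00393). STAT2 and IRF9, subunits of the factor that reads interferon signals, changed by -0.40 ± 0.07 and -0.39 ± 0.09. The RNA sensors DDX58, or RIG-I, and IFIH1, or MDA5, went from 94.2 to 68.9 CPM (log2 fold change -0.45 ± 0.08) and from 111 to 79 CPM (log2 fold change -0.49 ± 0.10).

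Among the antiviral effectors, IFIT2 stood at 269, 317 and 310.5 CPM in control and 235, 192 and 202 CPM in fPS 25, and RSAD2, viperin, at 121, 139 and 155 CPM in control and 106, 81.3 and 90.9 CPM in fPS 25. ISG15, a ubiquitin-like modifier, read 326, 441 and 275 CPM in control and 228, 200.2 and 262 CPM in fPS 25. USP18, which removes ISG15 and damps the receptor, fell from 31.3 to 21.3 CPM (log2 fold change -0.55 ± 0.09). MX1, OAS1, OAS2 and OAS3 were not called. Of the MHC class I presentation genes, which interferon raises, HLA-B and the immunoproteasome subunit PSMB10 fell (2 of 13), with log2 fold changes of -0.48 ± 0.09 and -0.71 ± 0.17. The share called of these presentation genes was 15.4%, beside 10.6% of all genes. With a library left out 2 to 22 interferon members were called down, and 1 was with the replicate block.

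The capitals below mark the letters of the interferon-stimulated response element, GAAA, any 2 bases and GAAA, on either strand, in a promoter with 2 overlapping matches. ISG15 lies on the plus strand, window chr1:1013247-1013546.
ISG15: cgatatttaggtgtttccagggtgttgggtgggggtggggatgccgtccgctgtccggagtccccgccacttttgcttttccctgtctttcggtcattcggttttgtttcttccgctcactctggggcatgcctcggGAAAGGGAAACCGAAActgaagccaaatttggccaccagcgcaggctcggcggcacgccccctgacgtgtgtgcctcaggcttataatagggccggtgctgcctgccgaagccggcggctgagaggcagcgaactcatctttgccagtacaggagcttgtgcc
Of 14 interferon genes that fell and have a promoter in the table, 7 hold the letters: IFIT3, ISG15, ISG20, IFIH1, HERC5, PARP14 and GBP1. They occur in 3.65% of all promoters of the table, in 2.86% of those of genes tested, in 4.36% of those of all genes called down and in 1.80% of those called up.

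Of 25 tested ER chaperones, folding enzymes and other genes of the UPR 13 fell and 1 rose. Of all genes 5.07% fell and 5.54% rose. The median fold change of the list was -0.32. HSPA5 (chr9:125234853-125241343), the Hsp70 chaperone BiP that senses unfolded protein, is among the most abundant messages of these cells. It stood at 2048, 2376 and 2032 CPM in control and 1422, 1492 and 1497 CPM in fPS 25 (log2 fold change -0.55 ± 0.09, adjusted p = 0.00806), and no called gene had a larger fall in CPM. HSP90B1, the ER form of Hsp90, read 1043, 1179.6 and 1085 CPM in control and 881, 838 and 930.2 CPM in fPS 25. The disulfide isomerases PDIA4 and PDIA6 changed by -0.38 ± 0.07 and -0.32 ± 0.09, and DNAJC3, a co-chaperone, by -0.28 ± 0.07.

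Several signalling and secreted members fell as well, while ATF6 rose. XBP1, the transcription factor that IRE1 activates by splicing, fell from 278, 362 and 278 CPM to 213, 218 and 239.8 CPM. CRELD2 and MANF, small secreted proteins of ER stress, went from 98.3 to 58.6 CPM (log2 fold change -0.75 ± 0.17) and from 116 to 79.4 CPM (log2 fold change -0.55 ± 0.13). HERPUD1, of ER-associated degradation, had the smallest adjusted p of the list (0.00439), at 174, 188 and 180.2 CPM in control and 129, 133 and 130.5 CPM in fPS 25. DDIT3, the death-promoting factor CHOP, and PPP1R15A, which restarts translation, changed by -0.48 ± 0.11 and -0.59 ± 0.13. ATF6, a membrane-bound sensor, went from 39.7, 31.9 and 39.4 CPM to 53.3, 51 and 50.3 CPM. For 12 of the 13 members called down, all but DNAJC3, the highest library was control replicate 2. Without control replicate 1 the number called down was 2, and without an fPS 25 library 1 to 5, while 11 were called without control replicate 2 and 18 without control replicate 3. With the replicate block none was called down, and with all 9 libraries fitted 2 were.

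Capitals in the following promoters mark the letters of the ER stress response element, CCAAT, any 9 bases and CCACG, on either strand. This is the combined NF-Y and ATF6 site. Windows are chr9:125241294-125241593 on the minus strand for HSPA5, chr22:49918384-49918683 on the plus strand for CRELD2 and chr22:28800520-28800819 on the minus strand for XBP1.
HSPA5: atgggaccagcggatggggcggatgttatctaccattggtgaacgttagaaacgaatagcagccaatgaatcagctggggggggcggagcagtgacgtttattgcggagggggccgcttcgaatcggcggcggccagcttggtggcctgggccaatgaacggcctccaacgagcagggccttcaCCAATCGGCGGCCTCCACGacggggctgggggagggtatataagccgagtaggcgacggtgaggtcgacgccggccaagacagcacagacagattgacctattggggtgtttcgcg
CRELD2: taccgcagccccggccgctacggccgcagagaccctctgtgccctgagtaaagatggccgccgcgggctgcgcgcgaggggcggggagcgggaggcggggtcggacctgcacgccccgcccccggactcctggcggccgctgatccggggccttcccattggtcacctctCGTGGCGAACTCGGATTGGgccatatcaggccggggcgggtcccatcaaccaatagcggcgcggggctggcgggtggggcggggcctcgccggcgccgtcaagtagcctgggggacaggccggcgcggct
XBP1: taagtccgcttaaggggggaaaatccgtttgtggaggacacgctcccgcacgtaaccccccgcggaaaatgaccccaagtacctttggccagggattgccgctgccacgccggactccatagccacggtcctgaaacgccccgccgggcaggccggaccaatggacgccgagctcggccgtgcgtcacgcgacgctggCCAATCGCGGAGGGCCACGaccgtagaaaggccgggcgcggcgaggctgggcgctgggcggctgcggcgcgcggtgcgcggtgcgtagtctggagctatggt
The letters occur in 22 of all 27305 promoters (0.0806%), and 15 of these belong to genes tested. Of those 15 genes, 5 were called down (HSPA5, HSP90B1, XBP1, CRELD2 and TMEM120A) and none was called up, and the first 4 are members of the list. CALR and CANX, lectin chaperones whose promoters also hold the letters, were not called, with log2 fold changes of -0.23 ± 0.08 and -0.17 ± 0.07.

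**Figure D3:**
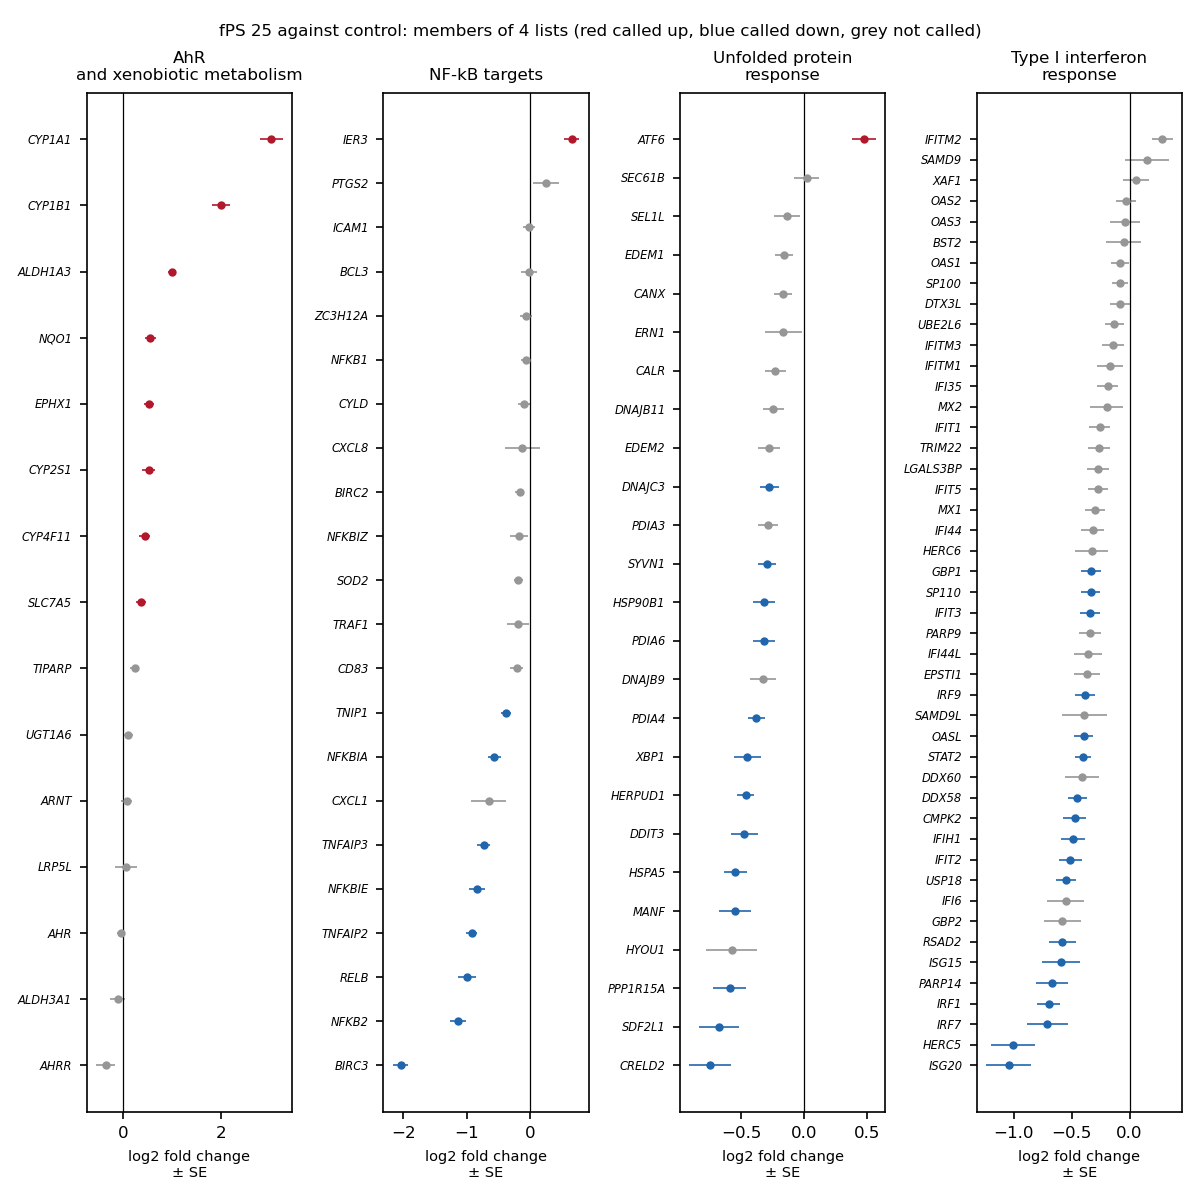
Log2 fold change of fPS 25 against control with its SE (horizontal axes, scaled separately) for tested members of 4 lists, one gene per line; a gene not reported here is left out of the interferon panel. Red points are genes called up, blue points genes called down and grey points genes not called. CYP1A1 and CYP1B1 lead the AhR list, BIRC3 lies lowest among NF-kB targets, and the UPR and interferon members lie mostly left of 0.

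The ATF4 list, of amino acid supply under translational stress, had 4 of 32 members called down (SESN2, CHAC1, DDIT3 and SHMT2) and SLC7A5 called up, with a median of -0.13. The share called was 15.6%, beside 10.6% of all genes. CHAC1, which degrades glutathione, fell from 55.1 to 33.8 CPM (log2 fold change -0.70 ± 0.14). None of 17 heat shock genes was called by edgeR, though 3 were lower at an unadjusted p under 0.05, and DESeq2 called 2 down. Of 32 cytosolic ribosomal proteins none was called by edgeR, 2 were higher at an unadjusted p under 0.05, and DESeq2 called 1. RPL10, a ribosomal protein that is not on this list, was called up (log2 fold change 0.37 ± 0.09, adjusted p = 0.0294), but not without control replicate 1 or without any 1 of the fPS 25 libraries. HSP90AA1 read 3127 ± 355 CPM in control and 2615 ± 192 CPM in fPS 25.

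Matrix proteases gave some of the steepest falls. Of 21 tested proteases and inhibitors 5 fell and none rose, against 5.07% of all genes called down. MMP13 (chr11:102942995-102955732), collagenase 3, stood at 26.6, 35.4 and 42.1 CPM in control and 5.56, 4.22 and 5.15 CPM in fPS 25 (log2 fold change -2.81 ± 0.18, adjusted p = 0.000435). Matrilysin, MMP7, read 11.2, 18.5 and 13.1 CPM in control and 2.72, 3.03 and 4.27 CPM in fPS 25, and stromelysin 2, MMP10, 10.7, 10.5 and 17.7 CPM in control and 3.56, 2.51 and 3.66 CPM in fPS 25. MMP1, the interstitial collagenase, changed by -0.87 ± 0.15. The membrane-bound MMP15, which was not listed, rose from 1.96, 1.63 and 1.48 CPM to 6.52, 5.29 and 5.33 CPM. The number called down was 5 to 7 with any library left out and 4 with the replicate block, but 0 with all 9 libraries fitted.

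Feedback genes of MAP kinase signalling and EGF receptor ligands leaned upward. Of 22 tested 6 rose and none fell, against 5.54% of all genes called up, and the median was 0.30. ETV4, an ETS factor induced by ERK, stood at 20.9, 17 and 16.5 CPM in control and 30.9, 36.6 and 37.5 CPM in fPS 25 (log2 fold change 0.95 ± 0.12, adjusted p = 0.00254). Its relative ETV5 changed by 0.42 ± 0.11. The inhibitors SPRED1, SPRY4 and DUSP4 went from 16.1 to 25.9 CPM (log2 fold change 0.68 ± 0.12), from 2.43 to 4.18 CPM (log2 fold change 0.78 ± 0.16) and from 8.61 to 14 CPM (log2 fold change 0.70 ± 0.13). ERBB2, a receptor of the EGF receptor family, rose from 97.7, 95.5 and 92 CPM to 123, 123 and 119 CPM. Without fPS 25 replicate 2 a single member was called up (1 of 22), as with the replicate block.

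Immediate early genes, which ERK signalling induces within minutes, had 6 of 24 called up: IER3, EGR1, FOS, ATF3, MYC and DUSP1. Of all genes 5.54% were called up. The list as a whole hardly moved, with a median of 0.03 and 13 of 24 fold changes above 0. EGR1 read 77.4, 66.6 and 69.1 CPM in control and 86.8, 111 and 108 CPM in fPS 25, and FOS rose from 4.2 to 6.91 CPM (log2 fold change 0.72 ± 0.15). KLF4 and KLF10 fell, KLF4 from 57.5, 57.8 and 69 CPM to 39.4, 37.9 and 39.8 CPM. None of the 6 rises was called without fPS 25 replicate 2 or without replicate 3. Of 23 YAP targets 3 fell (IGFBP3, AMOTL2 and ANKRD1) and none rose, IGFBP3 from 80.4, 68.6 and 72.2 CPM to 43.2, 45.4 and 44.7 CPM. Of 22 TGF-beta and mesenchymal genes 4 fell, among them PMEPA1, COL5A1 and VIM, and TGFB1 rose. The share called was 22.7%, beside 10.6% of all genes. The number of TGF-beta and mesenchymal genes called down was 3 or 4 with a library left out, 1 with all 9 libraries fitted and 0 with the replicate block. VIM was scarce, with a mean of 1.77 ± 0.329 CPM in control against 0.927 ± 0.161 CPM in fPS 25. Of 25 p53 targets 3 fell, among them PLK2 and SESN2, and TP53I3 rose. The share called was 13% of the YAP list and 16% of the p53 list, beside 10.6% of all genes.

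No mitotic gene was called down at this concentration. Of 30 tested, 2 were called up (6.7%, beside 5.54% of all genes), and none fell at an unadjusted p under 0.05. Fold changes ran from -0.11 to 0.33 around a median of 0.06. CCNA2, cyclin A2, stood at 95.9, 95.5 and 104 CPM in control and 126, 120.1 and 125 CPM in fPS 25 (log2 fold change 0.33 ± 0.07, adjusted p = 0.0181). PLK1, the polo-like kinase of mitotic entry, read 183, 177 and 173 CPM in control and 209, 211 and 212 CPM in fPS 25. Neither call held without control replicate 1 or without any 1 of the fPS 25 libraries. Among 37 genes of DNA replication 4 fell and none rose, with a median of -0.12. The share called was 10.8%, beside 10.6% of all genes called and 5.07% called down. The 4 were RFC4, a clamp loader subunit, POLA2 and POLD1, of the replicative polymerases, and CDT1, which licenses origins. RFC4 went from 111 to 79.8 CPM (log2 fold change -0.47 ± 0.11) and CDT1 from 102 to 80 CPM (log2 fold change -0.35 ± 0.09). No member was called down without control replicate 1, without any fPS 25 library or with the replicate block, while 14 were without control replicate 3.

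Some keratins fell, as did some genes tied to the hemidesmosome, the anchor of basal cells to their membrane. Of 19 tested basal genes KRT14, KRT5, COL7A1, PLEC and LAMB3 fell and KRT15 rose. The share called was 31.6%, beside 10.6% of all genes. The median was -0.01, with 8 of 19 fold changes above 0. The hemidesmosome genes ITGA6, ITGB4, COL17A1, DST and CD151 were not called. KRT5 stood at 2205, 1965 and 2196 CPM in control and 1762, 1597 and 1626 CPM in fPS 25, and its partner KRT14 at 137, 149 and 122 CPM in control and 101, 75.4 and 94.9 CPM in fPS 25. The wound keratins KRT16 and KRT17 changed by -0.70 ± 0.12 and -0.46 ± 0.10. KRT15, a type I keratin of basal cells, rose from 435, 369 and 387 CPM to 631, 576 and 604 CPM (log2 fold change 0.60 ± 0.09, adjusted p = 0.00426). COL7A1, the anchoring fibril collagen, fell from 339 to 248 CPM (log2 fold change -0.45 ± 0.08). Without control replicate 1 or with the replicate block, no basal gene was called down. KRT14, KRT16 and KRT17 have close copies in the genome, and how reads shared with them were counted is not given in the sources used here.

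In differentiation, KLF4 and SPINK5, the inhibitor of epidermal kallikreins, fell, and KLK5, one of its targets, and SPRR1B rose (18 tested). The share called was 22.2%, beside 10.6% of all genes. SPINK5 read 10.4, 10.2 and 9.25 CPM in control and 6.22, 6.69 and 6.92 CPM in fPS 25, and KLK5 88.3, 82.1 and 78.2 CPM in control and 104, 103 and 106 CPM in fPS 25. Of 24 cholesterol genes 3 rose, among them CYP51A1 and HMGCS1, the latter from 571 to 757 CPM (log2 fold change 0.41 ± 0.08), and ACSS2 and ACSL1 rose among 17 of fatty acid synthesis. These shares of 12.5% and 11.8% lie near the 10.6% of all genes called. CDC42 was the 1 member of 23 particle uptake genes to be called, from 193 to 248 CPM (log2 fold change 0.37 ± 0.07). Of 29 lysosomal genes FUCA1 rose and TFEB, the master regulator of lysosome genes, fell from 32.4 to 24.7 CPM (log2 fold change -0.39 ± 0.09), and of 19 autophagy genes GABARAPL1 and ULK1 fell. The shares called of uptake, lysosomal and autophagy genes were 4.3%, 6.9% and 10.5%, beside the same 10.6% of all genes. Among 13 proteins encoded by mitochondrial DNA, ND2 and ND3 were called up (15.4%, beside 5.54% of all genes). All 13 fold changes were above 0, with a median of 0.29. The share of counts on these 13 genes was 3.42%, 2.32% and 3.53% in the controls and 3.61%, 4.26% and 3.72% in fPS 25, with control replicate 2 lowest, and its part in these calls was not tested.

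**Figure D4:**
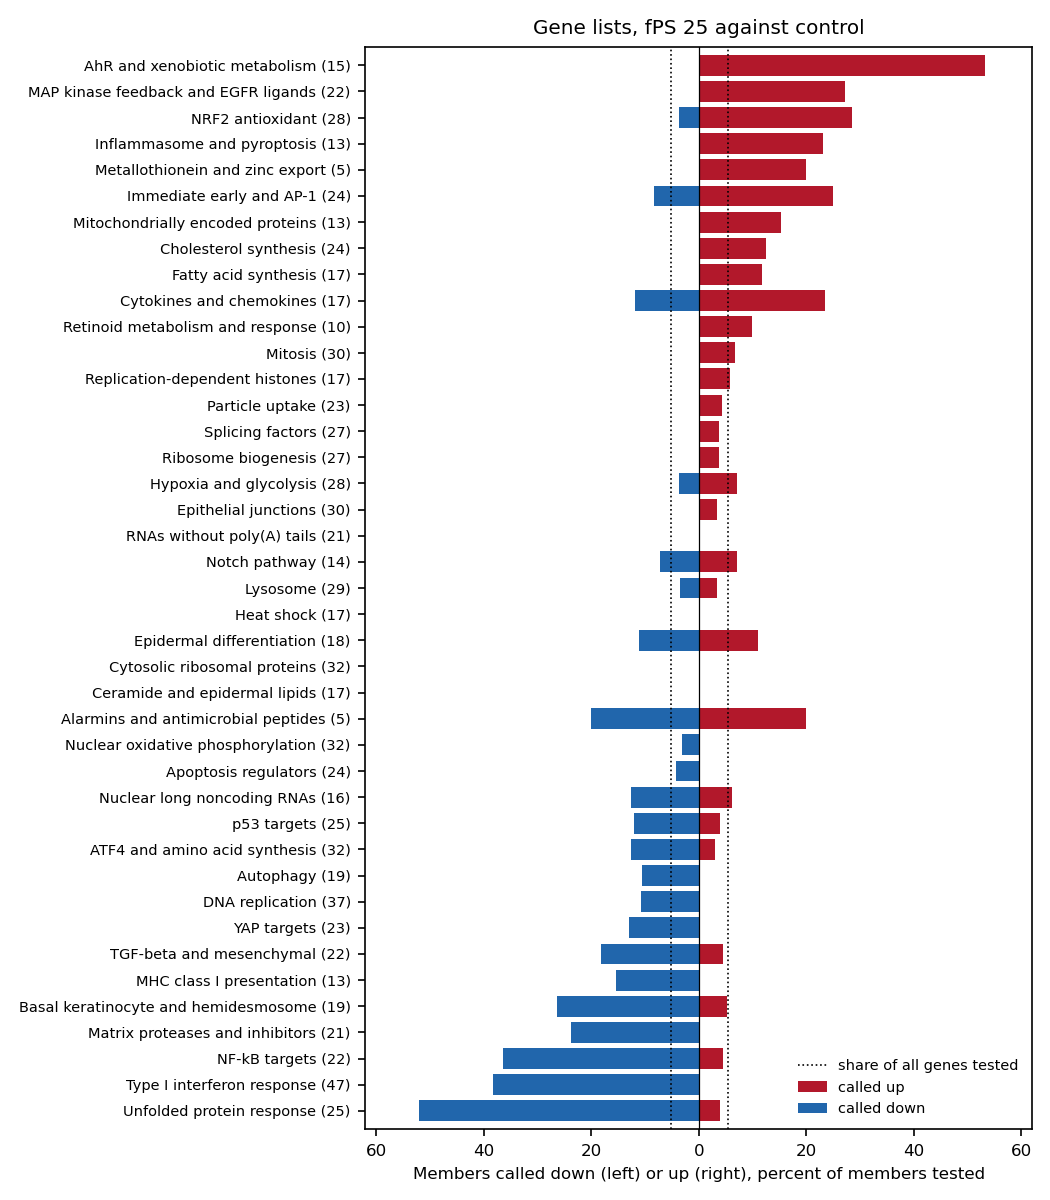
Percent of the tested members of each gene list called up (red, right of 0) or called down (blue, left of 0) in fPS 25 against control, with the number tested in brackets. Dotted lines mark the share of all 14242 genes called up (5.54%) and called down (5.07%). The AhR list reaches farthest up and the UPR list farthest down.

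By fold change, the largest rises after CYP1A1 and CYP1B1 were in low-level genes of varied function. PGBD1 stood at 2.28, 1.63 and 1.69 CPM in control and 6.28, 5.84 and 6.92 CPM in fPS 25. TMOD2, tropomodulin 2, which caps actin filaments, rose from 1.91 to 5.97 CPM (log2 fold change 1.65 ± 0.19), and IFT46, a part of the ciliary transport train, from 4.45 to 13 CPM (log2 fold change 1.55 ± 0.15). SDR42E1, a dehydrogenase, read 5.88, 3.42 and 6.0 CPM in control and 14.4, 15.6 and 16 CPM in fPS 25. KLF11, KCTD6, MINCR, ZNF619 and USH1G rose by 1.49 to 1.98 on the log2 scale, each from under 2 CPM.

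On the falling side, RTEL1-TNFRSF6B, annotated as a readthrough transcript of 2 neighbouring genes, went from 9.08, 5.53 and 10.9 CPM to 0.845, 0.639 and 0.573 CPM. RTEL1 and TNFRSF6B on their own read 23.3 ± 1.79 and 2.77 ± 0.935 CPM in control and 23.9 ± 0.831 and 1.8 ± 0.516 CPM in fPS 25, neither called, and how the reads of this locus were shared out was not tested. ZNF114 stood at 10.6, 24.2 and 15.5 CPM in control and 2.36, 2.47 and 2.91 CPM in fPS 25. SYP, synaptophysin, and AP3B2, proteins of vesicle membranes and their sorting, changed by -2.45 ± 0.27 and -2.95 ± 0.36. SYT11, a synaptotagmin, was called down at 0.958, 1.67 and 1.1 CPM in control and 0.0604, 0.213 and 0.0881 CPM in fPS 25. These fPS 25 levels rest on 1, 5 and 2 reads, so no fold is given. TMEM198 read 16, 28.4 and 18 CPM in control and 4.89, 4.35 and 4.89 CPM in fPS 25. GALR2, a galanin receptor, and HMCN1, hemicentin 1, changed by -2.44 ± 0.26 and -2.4 ± 0.30. ITGAM, an integrin subunit of myeloid cells, was called down from 1.73, 2.12 and 1.94 CPM to 0.483, 0.597 and 0.0881 CPM, the last of these from 2 reads. For ZNF114, SYP, SYT11, GALR2, AP3B2, ITGAM and TMEM198 the highest library was control replicate 2, and every control still lay above every fPS 25 library.

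The rises in CPM were headed by the mitochondrial RNR1, at 1778, 1651 and 2428 CPM in control and 3232, 3417 and 2444 CPM in fPS 25, by SLC7A5, at 3378, 3555 and 3149.8 CPM in control and 4324, 4589.6 and 4105 CPM in fPS 25, and by ND2. RPL10 followed, rising from 1095 to 1412 CPM (log2 fold change 0.37 ± 0.09). With single libraries left out, RNR1, SLC7A5, ND2 and RPL10 each lost the call for 4 of the 6. None of these 4 genes was called with the replicate block or with all 9 libraries fitted. The falls in CPM after HSPA5, KRT5 and HSP90B1 were in AGRN, the proteoglycan agrin, at 758, 796 and 717 CPM in control and 597, 579.7 and 550.2 CPM in fPS 25, and then in LAMB3, PLEC, ISG15 and TRIM56. TRIM56, a ubiquitin ligase of antiviral signalling, stood at 276, 301 and 266 CPM in control and 159.7, 176 and 163 CPM in fPS 25 (log2 fold change -0.76 ± 0.08, adjusted p = 0.00127). TRIM56 kept its call whichever library was left out. The call was lost for 5 libraries left out in turn for HSP90B1, 4 for KRT5, AGRN, LAMB3 and ISG15, 3 for PLEC and 1 for HSPA5. RNAs without a poly(A) tail, which signal how strictly a library was selected, summed to 415, 667 and 1456 CPM in the controls and 2197, 1365 and 482 CPM in fPS 25, and none of 21 was called by edgeR, DESeq2 or limma-voom or had an unadjusted p under 0.05 in edgeR. Their part in the results was not tested beyond 1 alternative: removing them and the histone genes before scaling gave 1593 calls.

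The fPS 100 libraries show which of these genes differ between the concentrations. The contrast of fPS 100 minus fPS 25, fitted on all 9 libraries, called 2012 of 14637 genes (13.7%), 924 higher (6.31%) and 1088 lower (7.43%) in fPS 100. Of the 789 genes called up at 25 µg/ml, 99 were higher still in fPS 100 and 37 were lower. Of the 722 called down, 68 were higher in fPS 100 and 79 were lower. The 2 contrasts share the fPS 25 libraries, so these counts are no independent check of either.

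A part of the detoxification genes was higher at the higher concentration. In fPS 100, 7 of 17 AhR members, 11 of 28 NRF2 members and 4 of 7 metallothionein and zinc export genes were above fPS 25. CYP1B1 differed by 1.2 ± 0.23 (adjusted p = 0.00536), TXNRD1 by 1.11 ± 0.13 and MT1E by 2.5 ± 0.20. CYP1A1 differed by 1.58 ± 0.47 but missed the threshold (adjusted p = 0.0501).

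Of the NF-kB list 12 of 22 members, and of the interferon list 20 of 48, were higher at 100 than at 25 µg/ml, and none was lower. These include 4 of the 8 NF-kB members and 10 of the 18 interferon members called down at 25 µg/ml. BIRC3 differed by 1.45 ± 0.40 (adjusted p = 0.0429), RELB by 1.67 ± 0.44, IRF1 by 0.54 ± 0.11 and ISG15 by 0.79 ± 0.17. IL1B, up at 25 µg/ml, was higher again by 1.77 ± 0.38, and IL6, down at 25 µg/ml, was higher by 1.56 ± 0.30. Leaving out any library gave 3 to 15 NF-kB members and 8 to 27 interferon members higher in fPS 100, the fewest without an fPS 25 library. With the fPS 25 and fPS 100 libraries alone fitted, the numbers were 4 and 20, and with the replicate block 6 and 15. For MMP13 and CCL2 the differences of 0.99 ± 0.85 and 2.84 ± 1.03 had wide errors and were not called.

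All 30 mitotic genes and 36 of 37 replication genes were lower in fPS 100 than in fPS 25, and the other replication gene, CCNE1, was higher. PLK1 differed by -1.25 ± 0.10, CCNA2 by -1.27 ± 0.12 and CDT1 by -1.52 ± 0.14, and with any library left out 28 to 30 and 35 or 36 members were called. The ATF4 list was lower too, in 19 of 33 members. Of the 25 UPR genes 1, DNAJB9, was higher and none was lower in fPS 100, with HSPA5 at a difference of 0.13 ± 0.16 and HERPUD1 at -0.15 ± 0.08, neither called. PGBD1, IFT46, KRT15 and TRIM56 differed by 0.00 ± 0.16, 0.60 ± 0.17, 0.18 ± 0.23 and 0.03 ± 0.09, and of these IFT46 alone was called.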

How the data were processed

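The authors deposited one count table for the series, a whole number of reads per gene row and library, and 9 files of log2 values per sample, whose scaling the sources used here do not state. Per the submitters' processing notes, bcl2fastq and genome build GRCh38.p14 were used. Per the labels' protocols, RNA was poly(A)-selected and made into libraries with NEBNext kits. How reads were aligned, counted or assigned to a strand is not given in those sources.

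The 58173 rows were summed to 52402 symbols, and rows below the largest of a symbol held 0.0337% of counts. Genes were filtered with filterByExpr (minimum count 10, total 15), scaled by TMM and tested with the robust quasi-likelihood fit of edgeR 4.0.16 in R 4.3.3, on the 6 libraries alone, with 4 residual degrees of freedom and a common dispersion of 0.0103 (biological coefficient of variation 10.2%). Tests are 2-sided. The size of a log2 fold change divided by the root of its F statistic gave the SE. A count of 0 allows up to 3 counts, or 0.118 to 0.183 CPM. Such limits cover counting error only. Replicate numbers are not stated to mark a shared culture, and deviations of same-numbered libraries correlated at -0.44 to -0.18, so they entered only as a block in an alternative. fPS 100 minus fPS 25 was fitted on all 9 libraries.

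Genes named are, among those called, at 1 CPM or more in the higher group and without overlap, the 12 largest rises and falls by fold, the 8 by CPM, and up to 4 per list with the smallest adjusted p, or the 2 most abundant members where none was called. Symbols of clones, loci, pseudogenes or antisense genes were passed over (1 rise and 4 falls). Members named beside these, and SAA2, RTEL1, TNFRSF6B, MMP15 as a protease and the families and the window of chromosome 11 in the closing section, were chosen after their values were seen. The 46 lists and the members were chosen with earlier results of these data known. Promoters and coordinates come from RefSeq tables of GRCh38.p14 (250 bases before to 50 after the start). Of 14242 genes tested, 10610 had a promoter. Alternatives used limma 3.58.1 (voom, and limma-trend on the deposited log2 values) and DESeq2 1.42.0, among others listed in the closing section. Some genes that the rule names are not reported here, though they stay in the counts. The procedure was tested on simulated data.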

Additional observations from a re-analysis of the deposited data

How the results depend on the processing

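All 1511 calls kept their direction in every alternative in which the gene was tested. Scaling, the fit, separate rows, a 1 CPM filter, DESeq2, limma-voom and the deposited log2 values gave 1411 to 1804 calls. The count moved by over 1.5 times with no filter (2395), with an offset for GC content and transcript length (2828), with all 9 libraries fitted (768), with the replicate block (284, numbers that share no stated culture) and with a minimum log2 fold change of 1 (6 genes: BIRC3, CCNT2-AS1, CYP1A1, DISP2, MMP13 and RTEL1-TNFRSF6B). Leaving out single libraries gave 380 to 3331. For fPS 100 against fPS 25, the main 2012 calls became 15 with the minimum fold change, 1399 with the replicate block, and 1018 to 2706 with a library left out. Over 5 equal bins of GC content the median log2 fold change went from 0.05 in the lowest to -0.08 in the highest, and over 5 bins of transcript length from -0.06 to 0.06. Of 123 named genes called, 56 were called whichever library was left out. No log2 fold change of a named gene changed sign where the main fit or the alternative called that gene. Some named genes that neither fit called did change sign. With a library left out, 218 of 822 values lost the call and 1 gained it, 78 of 137 did with the block, and 83 of 1636 under the other settings besides the minimum fold change. Under the deposited log2 values, which add 1 before the log, fold changes of low genes were smaller. The causes were not tested. With 3 libraries a group, a single library can decide calls near the threshold.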

Other observations

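The families below were picked by symbol after their values were seen, so the counts describe them and test nothing. Of 49 large-subunit mitochondrial ribosomal proteins tested, 8 were called up and none down by edgeR, while their median log2 fold change was -0.06, so the calls and the median had opposite signs. MRPL19 went from 74.2 to 101 CPM (log2 fold change 0.45 ± 0.07) and MRPL40 from 39.3 to 56.6 CPM (log2 fold change 0.53 ± 0.08). Without control replicate 3, 8 members were called up and 8 down, and with the replicate block none was called up. Of 27 small-subunit members 2 rose (MRPS26 and MRPS33) and 2 fell (MRPS15 and MRPS30). Among 399 zinc finger genes named ZNF, 32 rose and 12 fell, with a median of 0.08, where 5.54% of all genes rose and 5.07% fell. The number of ZNF genes called up ran from 8 without fPS 25 replicate 2 to 73 without control replicate 3. The 20 cytochrome P450 genes gave 5 rises and 1 fall, CYP27C1, from 12.3 to 7.85 CPM (log2 fold change -0.65 ± 0.10).

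Of 286 antisense RNA genes tested, 13 fell and 4 rose, with a median of -0.03. Both are smaller shares than the 5.07% of all genes that fell and the 5.54% that rose. Without fPS 25 replicate 1 or replicate 2, 2 were called down and none up. CCNT2-AS1 stood at 6.84, 9.31 and 8.71 CPM in control and 1.75, 1.62 and 1.94 CPM in fPS 25 (log2 fold change -2.23 ± 0.17, adjusted p = 0.000621 in edgeR), and EPB41L4A-AS1 at 36, 56.8 and 34.1 CPM in control and 18.5, 17.3 and 20.5 CPM in fPS 25. Whether the counting used strand is not given in the sources used here, so reads of such a gene and its sense partner cannot be told apart. NEAT1, the long noncoding RNA of paraspeckles, rose from 220.0 to 386 CPM (log2 fold change 0.81 ± 0.17), and GAS5 fell from 162 to 120.4 CPM (log2 fold change -0.43 ± 0.11).

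BIRC3 and 4 of the metalloprotease genes that fell lie within 638 kb of chromosome 11, chr11:102317484-102955732 of GRCh38.p14, a window whose ends were set by these genes. It holds 7 tested genes. In chromosomal order they are BIRC3 (-2.04 ± 0.12), BIRC2 (-0.16 ± 0.07), TMEM123 (-0.01 ± 0.08), MMP7 (-2.08 ± 0.23), MMP10 (-2.01 ± 0.24), MMP1 (-0.87 ± 0.15) and MMP13 (-2.81 ± 0.18), as log2 fold changes with their SE. BIRC2, with means of 73.7 ± 2.5 and 65.8 ± 2.74 CPM, and TMEM123, with 238 ± 23.5 and 236 ± 5.97 CPM, lie between genes that fell and were not called. Whether position plays any part was not tested.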
